A study of Mus musculus with 6 samples.

Results

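10 genes of the TGF-β system were followed, picked by gene symbol with earlier results of these data known. They encode the 3 TGF-β ligands (Tgfb1, Tgfb2 and Tgfb3), the receptors and co-receptors (Tgfbr1, Tgfbr2, Tgfbr3, Eng and Acvrl1) and 2 latent TGF-β binding proteins (Ltbp1 and Ltbp2). All 10 were found among the 46517 gene identifiers of the count files and all 10 were among the 15862 genes with enough reads to be tested. The cells were primary renal tubule epithelial cells (RTECs) grown from kidneys of wild-type FvB mice, which the sample labels place at 4 to 6 weeks of age. The study's methods describe these mice as male and give a slightly younger age range than the labels. All cultures were kept without serum for 24 h. The 3 TGF-β1 cultures then received 50 ng/ml TGF-β1 for 24 h, and the labels name the other 3 as the control (CTL). The comparison asked which transcripts of the ligand's own production, release and reception differed after the cells had been exposed to it. TGF-β1 was added as a protein, so the reads on Tgfb1 came from transcripts of the cells and not from the added ligand.

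TGF-β ligands are secreted in a latent form, in which the mature dimer stays bound to its own propeptide. Latent TGF-β binding proteins tether this complex to the extracellular matrix, and integrins or proteases release the active ligand from it. Active ligand binds the type II receptor Tgfbr2, which recruits and phosphorylates the type I receptor Tgfbr1, and Tgfbr1 phosphorylates Smad2 and Smad3. In the kidney this pathway is best known for its part in tubulointerstitial fibrosis.

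Libraries held 28313080 to 34183497 reads on genes. The tubule epithelium markers Epcam, Cdh1, Krt8, Krt18, Krt19, Pax2, Pax8 and Cdh16 were all measured, whereas the proximal tubule transporters Slc34a1, Slc5a2, Slc22a6 and Slc27a2 each stayed under 0.35 CPM (reads on a gene scaled to a common library total, with TMM over the tested genes). The other proximal tubule markers were present, with Lrp2 at 62.5 to 74.2, Aqp1 at 7.80 to 15.8, Cubn at 4.13 to 4.76 and Hnf4a at 0.62 to 1.18 CPM in CTL cultures. Both cultures numbered 2 stood apart from the other 4. The summed level of the 8 tubule epithelium markers was 963 to 1120 CPM in these 2 cultures and 1882 to 2839 CPM in the others. Epcam, Cdh1, Krt8, Krt18 and Krt19 were each lowest in culture 2 within each group. In CTL cultures 1 to 3 Pax8 was at 212, 215 and 192 CPM and Pax2 at 104, 100 and 84.2 CPM. Cdh16 was at 302, 251 and 232 CPM there. In TGF-β1 cultures Pax8 and Cdh16 were lowest in culture 2 and Pax2 was not. The summed level of 11 fibroblast and pericyte markers was 5261 to 7004 CPM in the cultures numbered 2 and 2871 to 4996 CPM in the others. However, these 11 did not move as a set. Within each group Acta2, Col1a1, Col1a2, Col3a1, Pdgfrb and Dcn were highest in culture 2. Postn, Thy1 and Pdgfra were lowest there, and Lum and Rgs5 had other orders. Postn was at 331 and 404 CPM in the cultures numbered 2 and at 456 to 934 CPM in the others. In RNA from whole cultures, fewer cells of a type and less RNA per cell cannot be told apart. Same-numbered CTL and TGF-β1 cultures deviated together from their group means, so a second fit of each test took the replicate number as a blocking factor, comparing cultures within each number.

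In edgeR's quasi-likelihood test with Benjamini-Hochberg adjustment over all tested genes, 2 of the 10 genes were higher in TGF-β1 cultures (Tgfb1 and Ltbp2) and 1 was lower (Tgfbr3), and 7 were not called at an adjusted p-value of 0.05. Across all tested genes 11.7% were called, 5.00% as higher and 6.69% as lower. By DESeq2 6.37% were higher and 8.61% lower, and at an unadjusted p-value of 0.05 in edgeR 13.2% were higher and 15.4% lower. With the replicate block, 7 of the 10 were called higher (Tgfb1, Tgfb2, Tgfb3, Tgfbr2, Acvrl1, Ltbp1 and Ltbp2) and again 1 lower (Tgfbr3), where 15.1% of all tested genes were called higher and 19.1% lower. The median log2 fold change was 0.25 over the 10 genes and -0.0028 over all tested genes. Values of the 2 groups did not overlap for 5 of the 10 genes (Tgfb1, Tgfb2, Tgfbr3, Acvrl1 and Ltbp2), and this held for 35.1% of all tested genes. The labels do not say whether replicates came from separate animals, so the p-values measure the spread between these cultures, which may be technical.

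**Figure D1:**
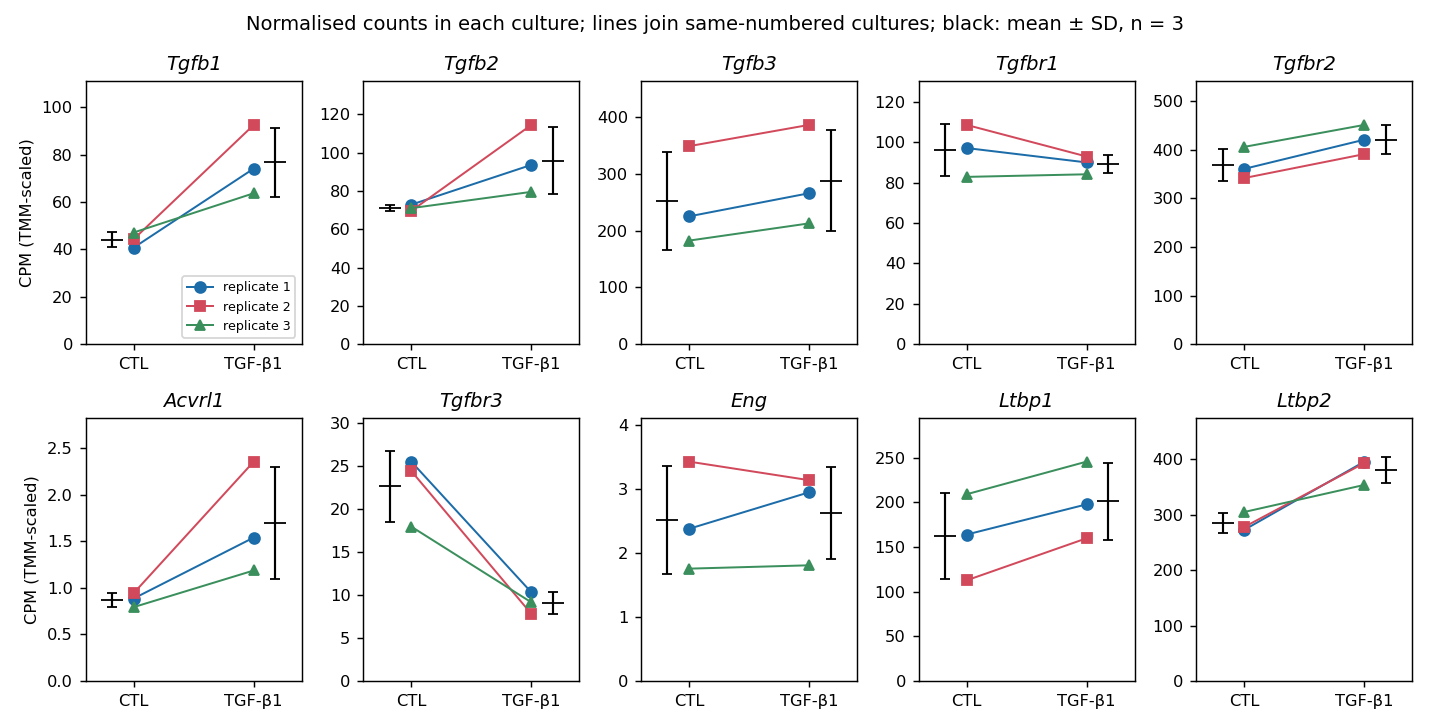
Level of each of the 10 genes in CPM (TMM-scaled, linear axes from 0) in the 3 CTL and the 3 TGF-β1 cultures, with coloured lines joining cultures of the same replicate number and black bars for the mean ± SD. The lines rise in all 3 numbers for 7 genes, fall in all 3 for Tgfbr3, and go both ways for Tgfbr1 and Eng. The share of all tested genes with the same direction in all 3 numbers is not given here, so this count is a description.

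Tgfb1 (ENSMUSG00000002603, GRCm38 chr7:25687002-25705077, plus strand) encodes the ligand that was also given to the cells. Its level in the CTL cultures 1 to 3 was 40.8, 44.3 and 47.1 CPM, and in the TGF-β1 cultures 74.2, 92.6 and 63.7 CPM. The lowest TGF-β1 culture was above the highest CTL culture. The means were 44.1 ± 3.20 and 76.8 ± 14.6 CPM (SD, n = 3 each), a 1.74-fold difference, and the log2 fold change was 0.80 (SE 0.14, edgeR adjusted p = 0.0225). Within replicate numbers the log2 ratio was 0.86, 1.06 and 0.44. The call was lost without CTL 1 (adjusted p = 0.105), CTL 2 (0.0590) or TGF-β1 culture 1 (0.0845). It was also lost without both cultures of replicate 1 (0.326), where edgeR called 0 genes. The same held without replicate 3 (0.0545), where 95 genes were called higher and 190 lower. The log2 fold change stayed between 0.64 and 0.97. With the block the call was kept whichever number was left out, though with 2 cultures a group this says little of stability.

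Tgfb2 (ENSMUSG00000039239, chr1:186622792-186705989, minus strand) encodes the ligand that depends most on the co-receptor betaglycan for binding to Tgfbr2. It was at 72.8, 69.6 and 71.0 CPM in CTL and at 93.6, 114 and 79.5 CPM in TGF-β1 cultures. The CTL cultures lay close together and all 3 TGF-β1 cultures were above them. Its log2 fold change of 0.43 (SE 0.13) was not called without the block (adjusted p = 0.0865). It was called with the block (log2 fold change 0.42, SE 0.10, adjusted p = 0.0239), with DESeq2 (0.0304) and without TGF-β1 culture 3 (log2 fold change 0.55, adjusted p = 0.0420), and with the block it was not called without replicate 1 (0.0630). Without TGF-β1 culture 2 the log2 fold change was 0.28 (adjusted p = 0.0964), and with the block without replicate 2 it was 0.27 (adjusted p = 0.00706).

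Tgfb3 (ENSMUSG00000021253, chr12:86056745-86079041, minus strand) was the ligand with the most reads. It was at 225, 349 and 183 CPM in CTL and at 266, 387 and 213 CPM in TGF-β1 cultures. The groups overlapped widely, since both cultures numbered 2 were highest and both numbered 3 were lowest. Within CTL the highest culture was 1.91-fold above the lowest, and the group means of 252 ± 86.5 and 289 ± 89.0 CPM differed by less than this spread (log2 fold change 0.19, SE 0.31, adjusted p = 0.731). With the block the log2 fold change of 0.20 had an SE of 0.04 and was called (adjusted p = 0.00907), and the 3 ratios within numbers were 0.24, 0.15 and 0.22. Without the block the value moved from -0.079 without TGF-β1 culture 2 and 0.0069 without CTL 3 to 0.50 without CTL 2. The blocked call was lost without replicate 1 (0.168), and also when the block was combined with library size in place of TMM (0.0577). The summed fibroblast and pericyte marker level was also highest in the cultures numbered 2, though Postn, Thy1 and Pdgfra were lowest there. The part of these markers in this result was not tested. Exons of Tgfb3 overlap those of Gm37804 (163 bp), which had 19 to 53 reads per library, and of Gm48008 (257 bp), not analysed here.

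Taken per kb of exon, Tgfb3 made up 77.0 ± 5.94% of the ligand transcripts in CTL and 72.4 ± 2.31% in TGF-β1 cultures. Exon length was the union of all annotated exons, 5042 bp for Tgfb1, 5791 bp for Tgfb2 and 3383 bp for Tgfb3. It was not matched to the transcripts these cells express, so the size of each share depends on the annotation. The share of Tgfb1 was 9.57 ± 2.66% and 13.2 ± 1.07%, and was higher in TGF-β1 cultures in 3 of 3 replicate numbers (exact two-sided permutation test p = 0.2, 0.54 after Benjamini-Hochberg adjustment over 9 such comparisons). The share of Tgfb3 was lower in 3 of 3 numbers (difference -4.56 percentage points, exact permutation p = 0.3, adjusted 0.54). The share of Tgfb2 was 13.4% and 14.4% (exact permutation p = 0.8). The summed ligand level was 95.6 ± 25.3 CPM per kb in CTL and 117 ± 32.2 CPM per kb in TGF-β1 cultures (exact permutation p = 0.5), higher in 3 of 3 numbers. With 3 cultures against 3 this test cannot go below 0.1.

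**Figure D2:**
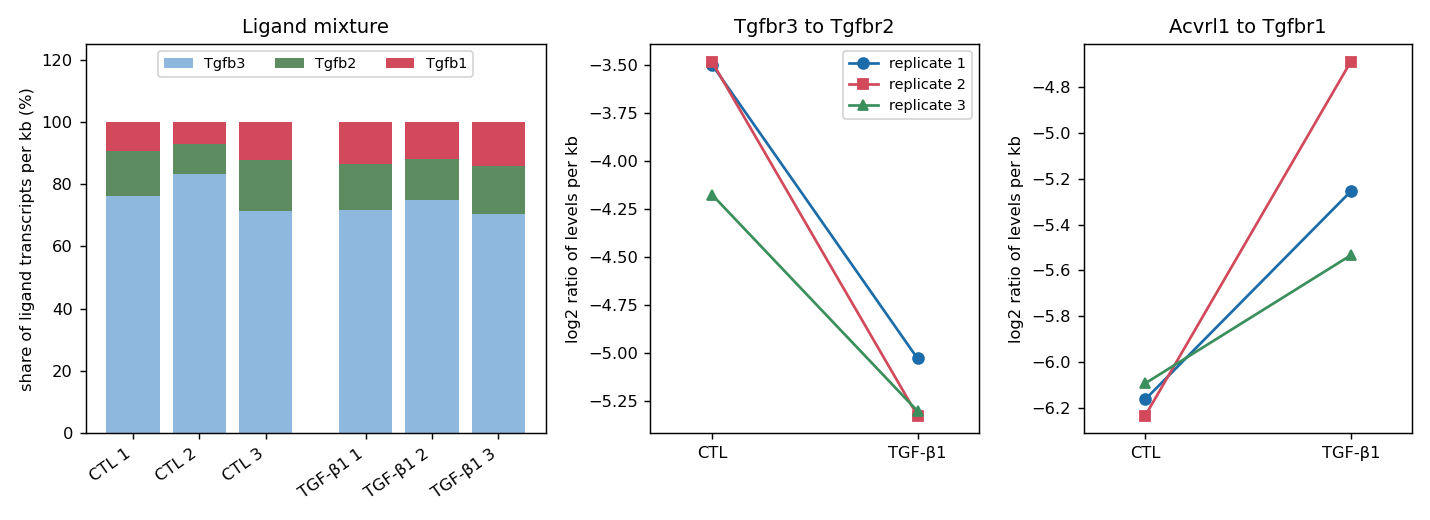
Share of each ligand in the summed ligand level per kb of exon (percent), and the log2 ratios of Tgfbr3 to Tgfbr2 and of Acvrl1 to Tgfbr1 per kb, in each of the 6 cultures, with lines joining cultures of the same replicate number. Tgfb3 is the largest ligand share in every culture, from 70.5% to 83.2%, and the ratio of Tgfbr3 to Tgfbr2 is lower in all 3 TGF-β1 cultures than in any CTL culture.

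Of the signalling receptors, Tgfbr2 (ENSMUSG00000032440, chr9:116084293-116175360, minus strand), the type II receptor that binds ligand first, had the higher level. Its values were 361, 342 and 406 CPM in CTL and 421, 391 and 451 CPM in TGF-β1 cultures. The groups overlapped, but in each replicate number the TGF-β1 culture was above its CTL culture, by 0.22, 0.19 and 0.15 on the log2 scale. The log2 fold change of 0.19 (SE 0.09) was not called without the block (adjusted p = 0.217) and was called with it (0.19, SE 0.04, adjusted p = 0.0129). The blocked call was lost without replicate 1 (0.210) and with library size in place of TMM (0.0696).

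Tgfbr1 (ENSMUSG00000007613, chr4:47353222-47414931, plus strand), the type I receptor kinase, was at 97.2, 109 and 82.9 CPM in CTL and at 90.0, 93.0 and 84.2 CPM in TGF-β1 cultures. The 3 TGF-β1 values lay inside the CTL range. The log2 fold change of -0.11, which ran from -0.21 without CTL 3 to -0.015 without CTL 2, was not called without (SE 0.10, adjusted p = 0.526) or with the block (SE 0.05, adjusted p = 0.178), and was called lower with the block only when replicate 3 was left out (log2 fold change -0.17, adjusted p = 0.0360). The log2 ratio of Tgfbr2 to Tgfbr1 per kb was 1.62 ± 0.32 in CTL and 1.91 ± 0.18 in TGF-β1 cultures, higher in 3 of 3 numbers (exact permutation p = 0.3).

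Tgfbr3 (ENSMUSG00000029287, chr5:107106570-107289629, minus strand) encodes betaglycan, a membrane proteoglycan without kinase activity that presents ligand to Tgfbr2. It was at 25.5, 24.4 and 17.9 CPM in CTL and at 10.3, 7.79 and 9.13 CPM in TGF-β1 cultures. The highest TGF-β1 culture was well below the lowest CTL culture. Mean levels were 22.6 ± 4.09 and 9.07 ± 1.26 CPM (SD, n = 3 each), 2.49-fold lower after TGF-β1, with a log2 fold change of -1.32 (SE 0.17, adjusted p = 0.00925) and of -1.31 with the block (SE 0.12, adjusted p = 0.000226). This was the largest change among the 10 genes. The fall was present in each replicate number, with log2 ratios of -1.31, -1.65 and -0.97. The call was lost without CTL 1 (adjusted p = 0.0505) and without both cultures of replicate 1 (0.238), where edgeR called 0 genes. On leaving out cultures the log2 fold change lay between -1.47 and -1.15. The log2 ratio of Tgfbr3 to Tgfbr2 per kb moved from -3.72 ± 0.40 to -5.22 ± 0.17 without overlap, at the smallest p the design allows (exact permutation p = 0.1, adjusted 0.45).

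Eng and Acvrl1 were the least abundant of the 10. Eng (ENSMUSG00000026814, chr2:32646595-32682669, plus strand) encodes endoglin, a co-receptor that is abundant in endothelium. It had 51 to 113 reads per culture, at 2.38, 3.43 and 1.76 CPM in CTL and 2.95, 3.14 and 1.81 CPM in TGF-β1 cultures. As for Tgfb3, both cultures numbered 2 were highest and both numbered 3 lowest, and the groups overlapped. The log2 fold change of 0.06 (SE 0.32, adjusted p = 0.93) was smaller than its error, and its sign turned with library size in place of TMM (-0.019). Eng shares 61 bp of exon with Fpgs, which had 982 to 1329 reads per library.

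Acvrl1 (ENSMUSG00000000530, chr15:101128522-101145336, plus strand) encodes ALK1, a type I receptor of BMP9 and BMP10 that acts with endoglin. It had 29, 31 and 23 reads in the CTL and 48, 72 and 40 reads in the TGF-β1 libraries, or 0.885, 0.941 and 0.792 CPM against 1.54, 2.36 and 1.19 CPM. All TGF-β1 cultures were above all CTL cultures. The log2 fold change of 0.95 (SE 0.29) was not called without the block (adjusted p = 0.0886) and was called with it (0.94, SE 0.21, adjusted p = 0.0108), though not without replicate 1 (0.0564) or 2 (0.0621). In the fit without the block, leaving out TGF-β1 culture 2 gave a log2 fold change of 0.63 (adjusted p = 0.156). The log2 ratio of Acvrl1 to Tgfbr1 per kb was -6.16 ± 0.07 in CTL and -5.16 ± 0.43 in TGF-β1 cultures, without overlap (exact permutation p = 0.1, adjusted 0.45). Of 12 endothelial markers, Pecam1, Cdh5, Tek, Plvap and Robo4 had at most 16 reads in any library, Tie1 at most 3, and Kdr, Erg and Emcn at most 33. Esam (0.83 to 2.78 CPM) and Ptprb (1.21 to 4.22 CPM) lay near the levels of Eng and Acvrl1. The sum of all 12, most of it Flt1, was 39.6 to 59.5 CPM in CTL and 26.4 to 41.7 CPM in TGF-β1 cultures. Of the 6 endothelial markers tested, edgeR called 0 in either direction, 0 higher and 2 lower with the block, and 0 higher and 2 lower both by DESeq2 and at an unadjusted p-value of 0.05.

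Latent TGF-β binding proteins are large matrix glycoproteins related to the fibrillins. Ltbp2 (ENSMUSG00000002020, chr12:84783212-84876532, minus strand) differs from the other family members in that it does not bind latent TGF-β. It was at 273, 278 and 305 CPM in CTL and at 396, 393 and 354 CPM in TGF-β1 cultures. All TGF-β1 cultures were above all CTL cultures. The means were 285 ± 17.3 and 381 ± 23.6 CPM, 1.34-fold apart (log2 fold change 0.42, SE 0.07, adjusted p = 0.0194). The ratio was smaller in replicate 3 (0.21 on the log2 scale) than in replicates 1 and 2 (0.54 and 0.50). The call was lost without CTL 1 (adjusted p = 0.103), CTL 2 (0.0542), TGF-β1 culture 1 (0.0910) or TGF-β1 culture 2 (0.0501). It was also lost without both cultures of replicate 1 (0.351), where edgeR called 0 genes, or of replicate 3 (0.0504). The log2 fold change stayed between 0.36 and 0.52. Ltbp2 shares 764 bp of exon with the antisense gene D030025P21Rik, which had 41 to 66 reads per library. The genes whose exons overlap those of Tgfb2, Tgfbr3 and Acvrl1 had at most 5 reads.

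Ltbp1 (ENSMUSG00000001870, chr17:75005568-75392512, plus strand) encodes a member that is disulfide-linked to the propeptide of the latent complex. It was at 164, 113 and 209 CPM in CTL and at 198, 160 and 246 CPM in TGF-β1 cultures. The groups overlapped, with both cultures numbered 3 highest and both numbered 2 lowest, the same order as for Tgfbr2 and for 5 of the 8 tubule epithelium markers (Epcam, Cdh1, Krt8, Krt18 and Krt19), while Pax2, Pax8 and Cdh16 had other orders. The log2 fold change of 0.31 (SE 0.26) was not called without the block (adjusted p = 0.478) and was called with it (0.33, SE 0.06, adjusted p = 0.00351), also when any 1 replicate number was left out, where 2 cultures a group say little of stability. Without the block it was 0.11 without CTL 2, 0.14 without TGF-β1 culture 3 and 0.54 without CTL 3 (adjusted p = 0.776, 0.787 and 0.240). The part of the marker levels in this result was not tested. The log2 ratio of Ltbp1 to Ltbp2 per kb was -1.25 ± 0.39 in CTL and -1.33 ± 0.39 in TGF-β1 cultures (exact permutation p = 1).

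**Figure D3:**
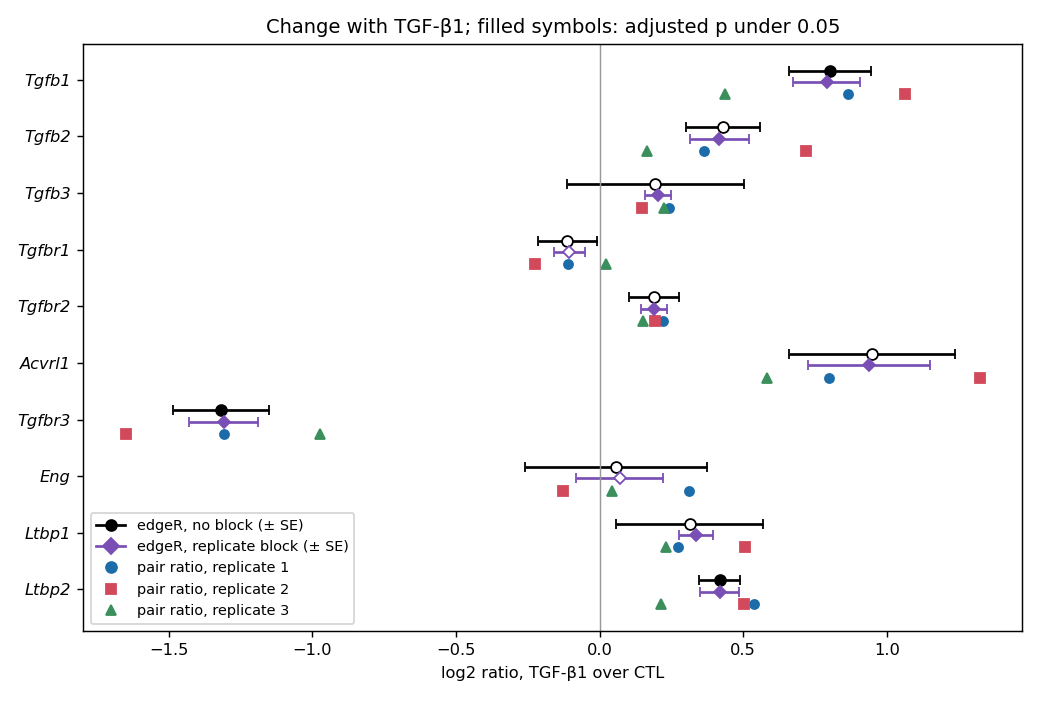
Log2 fold change of each gene, TGF-β1 against CTL, with its standard error from edgeR without and with the replicate block, and the log2 ratio within each replicate number as points. Tgfbr3 lies furthest from 0, at -1.32, and the standard errors of Tgfb3 and Ltbp1 fall from 0.31 and 0.26 to 0.04 and 0.06 with the block.

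The size of the change differed between replicate numbers. The absolute log2 ratio within a number was largest in replicate 2 for 6 of the 10 genes and in replicate 1 for the other 4, and smallest in replicate 3 for 9 of 10. Its median over the 10 genes was 0.33, 0.50 and 0.22 in replicates 1, 2 and 3. Over all 15862 tested genes the same medians were 0.19, 0.23 and 0.17, so replicate 2 was also highest and replicate 3 lowest there.

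Levels of different genes were compared per kb of exon, with the union of all annotated exons as the length. The order between genes therefore depends on the annotation. In CTL cultures the order ran from Tgfb3 at 74.6 CPM per kb through Tgfbr2 at 45.1 and Ltbp2 at 34.9 to Ltbp1 at 15.1, Tgfbr1 at 14.7, Tgfb2 at 12.3 and Tgfb1 at 8.74. Tgfbr3 followed at 3.46, Eng at 0.62 and Acvrl1 at 0.20 CPM per kb. Neighbours in this order had separate ranges, other than Ltbp1 and Tgfbr1. In TGF-β1 cultures Tgfb3 was again first at 85.3 CPM per kb, ahead of Tgfbr2 at 51.4 and Ltbp2 at 46.6, whose ranges overlapped. Tgfb2 at 16.6 and Tgfb1 at 15.2 CPM per kb now stood above Tgfbr1 at 13.6, although the ranges of Ltbp1, Tgfb2, Tgfb1 and Tgfbr1 overlapped from each to the next. Tgfbr3 at 1.39 CPM per kb stayed above Eng at 0.65 and Acvrl1 at 0.40.

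**Figure D4:**
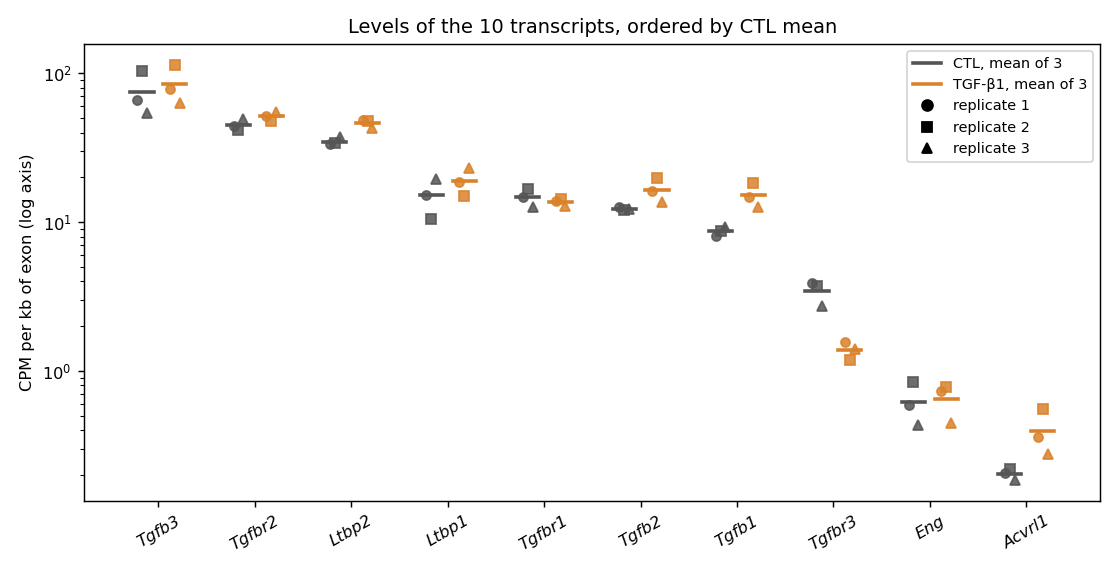
Level of each gene in CPM per kb of exon (log axis) in CTL and TGF-β1 cultures, with a point per culture and the group mean. Levels span from 0.20 CPM per kb for Acvrl1 to 85.3 CPM per kb for Tgfb3.

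Promoter sequence was at hand for 7 of the 10 genes (RefSeq start sites, GRCm38.p6), and is shown for Tgfb1 and Ltbp2, the genes called higher without the block. The stretches end at the base before the first annotated transcript base, read 5′ to 3′ on the gene's strand, and cover chr7:25686752-25687001 (plus strand, GC content 75.2%) and chr12:84876533-84876741 (minus strand, GC content 63.2%). Capitals mark the Smad element CAGAC and the GC box GGGCGG, or their reverse complements.

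Tgfb1: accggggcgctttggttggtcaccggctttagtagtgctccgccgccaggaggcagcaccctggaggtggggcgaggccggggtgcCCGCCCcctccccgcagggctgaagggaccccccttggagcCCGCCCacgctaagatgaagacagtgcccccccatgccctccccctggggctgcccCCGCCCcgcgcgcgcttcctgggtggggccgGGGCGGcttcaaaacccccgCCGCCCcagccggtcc

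Ltbp2: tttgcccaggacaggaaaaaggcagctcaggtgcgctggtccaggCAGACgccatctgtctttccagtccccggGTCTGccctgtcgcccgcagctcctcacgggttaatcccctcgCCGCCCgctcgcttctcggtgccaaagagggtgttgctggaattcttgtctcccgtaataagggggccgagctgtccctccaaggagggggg

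The Tgfb1 stretch held 5 GC boxes and no CAGAC, and the Ltbp2 stretch held CAGAC at -205 and -176 from the RefSeq start and a GC box at -133. Searched on both strands over the 250 bases before the start of the gene, CAGAC was found for 5 of the 7 genes (a further start inside Tgfbr1 also had 1) and in 42.2% of 32544 mouse promoters, and GGGCGG for 3 of the 7 and in 33.0% of promoters. The AP-1 motif TGANTCA was in none of the 7 and in 6.73% of promoters. A match is a description of the letters and says nothing of binding.

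The other genes of the pathway were read from lists chosen with earlier results of these data known, so their counts are a description. They are to be set beside the shares of all genes given above (5.00% higher and 6.69% lower, 15.1% and 19.1% with the block, 6.37% and 8.61% by DESeq2, 13.2% and 15.4% unadjusted). Of 21 further genes of latency and activation, 19 were tested, and 5 were higher and 0 lower in edgeR without the block, with a median log2 fold change of 0.51 (7 and 1 by DESeq2, and also 7 and 1 at an unadjusted p-value of 0.05). Itgb3, a subunit of an integrin that binds the propeptide, rose from 39.8 ± 4.34 to 111 ± 10.2 CPM (log2 fold change 1.48, adjusted p = 0.0022). Fibronectin (Fn1), the matrix protein through which latent complexes are deposited, rose by 1.04 on the log2 scale (adjusted p = 0.0038). The proteases Bmp1 (0.76, adjusted p = 0.0103) and Furin (0.53, adjusted p = 0.0131), which process matrix proteins and the TGF-β precursor, and the integrin subunit Itgb1 (0.56, adjusted p = 0.0228) were the others. With the block, 10 were higher and 3 lower, the latter being Itgav, Itgb6 and Itgb8, subunits of the integrins that activate latent TGF-β (Itgb6 log2 fold change -1.25, adjusted p = 0.269 without and 0.0001 with the block). Itgb1, Itgav, Itgb6 and Itgb8 are named after their values were seen. The other binding proteins did not pass in either fit, with Ltbp3 at 522 ± 69.5 and 527 ± 41.3 CPM and a log2 fold change of 0.13 for Ltbp4.

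Of 9 other type I and type II receptors of the superfamily, 7 were tested, 2 were higher and 1 lower, with a median log2 fold change of 0.05. The BMP receptors Acvr1 (log2 fold change 0.81, adjusted p = 0.0017) and Bmpr2 (0.44, adjusted p = 0.0060) rose, and the activin receptor Acvr2b fell by 0.63 on the log2 scale (adjusted p = 0.0382). With the block 2 were higher and 2 lower. Of 17 regulators and adaptors of the receptors, 3 were higher and 3 lower (6 and 7 with the block, median log2 fold change -0.14). Cd109, a TGF-β co-receptor that promotes receptor degradation, fell from 49.9 ± 10.5 to 21.0 ± 3.24 CPM (log2 fold change -1.25, adjusted p = 0.0133), and the ubiquitin ligase Nedd4l fell by 0.74 on the log2 scale (adjusted p = 0.0173). Pmepa1, an inhibitor of receptor-regulated Smads that TGF-β induces, rose by 0.87 (adjusted p = 0.0105), and the ubiquitin ligase Smurf2 by 0.28 (adjusted p = 0.0120).

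Of the 8 Smads, 2 were higher and 0 lower in edgeR without the block (2 and 4 with the block, 2 and 3 by DESeq2 and at an unadjusted p-value of 0.05), with a median log2 fold change of -0.18. The inhibitory Smad7 rose by 0.55 on the log2 scale (adjusted p = 0.0140) and Smad5, which serves BMP receptors, by 0.22 (adjusted p = 0.0287). Smad3 and Smad6 had log2 fold changes of -0.46 and -0.51 that were not called without the block (adjusted p = 0.0698 and 0.0716) and were called lower with it (0.0002 and 0.0255). Of 19 established transcriptional targets, 7 were higher and 0 lower in edgeR without the block (14 and 3 with the block, 8 and 0 by DESeq2, 8 and 1 at an unadjusted p-value of 0.05), with a median of 0.49. Skil, a Smad co-repressor, rose by 0.76 on the log2 scale (adjusted p = 0.0038), and the cell cycle inhibitor Cdkn2b by 0.85 (adjusted p = 0.0038). Fn1, Pmepa1, Smad7, Ltbp4 and Itgb6 stand in more than one list and are counted in each.

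**Figure D5:**
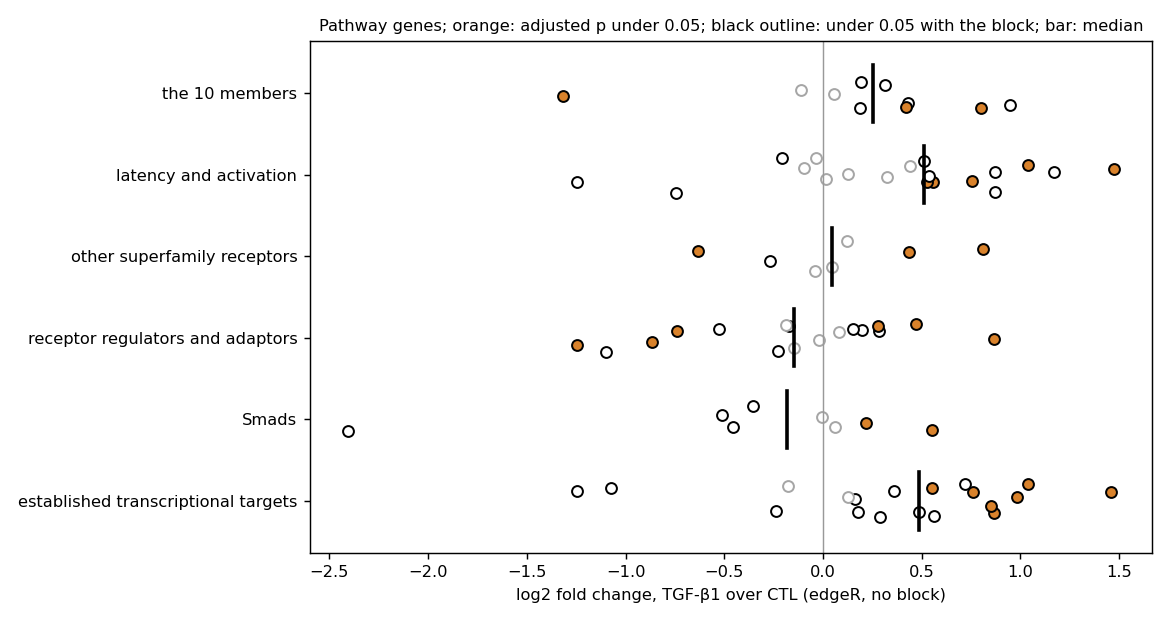
Log2 fold change, TGF-β1 against CTL, of each tested gene in the lists of the pathway, with filled points for genes called by edgeR without the block, black outlines for those called with it and a bar at each list's median. Medians run from -0.18 for the Smads to 0.51 for latency and activation.

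The genes most like a called gene in level over the 6 cultures were listed, among 10911 genes with a mean of at least 5 CPM. This was done for Tgfb1 and Tgfbr3, which had the largest rise and the largest fall among the members called without the block. By Pearson's r of log2 CPM, Tgfb1 was nearest to Blcap (0.999), Farsa (0.997) and Tnks1bp1 (0.997), and Tgfbr3 to Lzts3 (0.9997), Sema5a (0.999) and Stxbp6 (0.997). All 6 points share their libraries and the difference between groups with each other, so these values are a description.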

How the data were processed

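RNA sequencing libraries of 3 CTL and 3 TGF-β1 cultures were analysed from the deposited read counts, which are whole reads per gene with no normalization. The authors purified poly(A) RNA and sequenced single-end 50 bp reads. Their processing notes name Trim Galore, STAR 2.4.1d, HTSeq 0.6.1 and GRCm38. The annotation release and the strand setting of the counting are not given in the sources used here, so reads from exons shared with an antisense or overlapping gene could not be assigned apart. Rows naming no gene held 25.4% to 25.9% of reads and were left out. Of 46517 identifiers, 46005 matched GENCODE M21, which gave symbols, positions and union exon lengths. A floor of 3 counts corresponded to 0.0878 to 0.106 CPM and covers counting error only.

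Counts were tested in R 4.3.3 with edgeR 4.0.16 (filterByExpr, TMM, robust quasi-likelihood fit, two-sided, Benjamini-Hochberg adjustment over 15862 genes, threshold 0.05). CPM were counts over the TMM-scaled total of tested genes, and SE was taken from the F statistic. Ratios and shares were computed per kb of exon and compared by exact two-sided permutation tests. No 2 libraries agreed within sampling noise, the closest pair having a chi-square of 6.70 per degree of freedom. The labels share replicate numbers between groups. Deviations from the group means correlated at 0.34, 0.68 and 0.57 for the same numbers and at -0.62 to 0.22 for different ones, so the numbers were taken to pair the cultures. Because each group was centred on its own mean, these correlations depend on each other. The pairing was least distinct for number 1, since CTL 1 and TGF-β1 culture 3 correlated at 0.22. The main test was without the block because the study's methods name a two-tailed Student test between 2 groups and mention no pairing.

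Alternatives were DESeq2 1.42.0, RLE factors and scaling by library size only. Other filters asked for 1 or more counts in total, or for 10 or more counts in each culture. Further alternatives were the replicate block, an adjusted p-value of 0.01, and leaving out each culture or each replicate number. The block with library size only was added after seeing the data. The code was tested on simulated counts with 200 genes changed and no effect shared by replicate number, so the block was not tested on paired counts. The share of false calls was 12.3% in edgeR, 15.3% with the block and 32.2% with DESeq2, above the threshold in all 3 fits tried. Calls near the threshold are therefore less certain than their adjusted p-values state. The 10 genes and all lists were chosen with earlier results of these data known. Of the lists, the up to 4 genes with the smallest adjusted p-value were named, and for likeness the 3 genes with the highest r. 1 gene that this rule selects is not reported here. Figures were drawn with matplotlib 3.10.9.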

Additional observations from a re-analysis of the deposited data

How the results depend on the processing

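Tgfb1, Tgfbr3 and Ltbp2 were called at an adjusted p-value of 0.05 in all 7 alternatives that left no culture out (adjusted p up to 0.0240, 0.0101 and 0.0269), and with the block whichever replicate number was left out. The blocked fits without a number had 2 cultures a group, so these kept calls say little of stability. The block raised the genes called higher among the 10 from 2 to 7 (5 with library size only, and 3, 6 and 7 without replicate 1, 2 and 3), DESeq2 gave 3, and leaving out 1 culture or 1 number without the block gave 0 to 3. Genes called lower among the 10 numbered 1, 2 with the block without replicate 3, and 0 to 1 on leaving out. Over all genes, 793 were higher and 1061 lower, against 2388 and 3037 with the block, 1519 and 4048 with the block and library size only, 508 and 1467 with library size only, and 127 and 192 at an adjusted p-value of 0.01. The block without replicate 1, 2 and 3 gave 1026, 2288 and 2581 higher and 1649, 2718 and 3254 lower genes, and leaving out without the block gave 0 to 1084 and 0 to 1290. Without replicate 1 edgeR called 0 genes, where 1938 had an unadjusted p-value under 0.05, and with 2 cultures a group this says little of stability. The log2 fold change of Tgfb3 turned to -0.079 without TGF-β1 culture 2 (range on leaving out -0.079 to 0.50). That of Eng turned to -0.019 with library size only, -0.0063 with the block and library size only and -0.055 with the block without replicate 1, and ranged from -0.14 to 0.34 on leaving out. The cause of these changes was not tested. Among the 10 genes, the block changed the calls of Tgfb2, Tgfb3, Tgfbr2, Acvrl1 and Ltbp1 and no other. DESeq2 gave 1109 higher and 1499 lower genes. Eng and Acvrl1 had the fewest reads of the 10 genes, 23 to 113 per library.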

Other observations

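The markers of other cell types gave the following levels, summed over each list in CPM. Of 8 tubule epithelium markers, 2 were lower in edgeR without the block (Cdh16 with an adjusted p-value of 0.00922 and Pax8 with 0.00436) and 6 with it. Of 8 proximal tubule markers 4 were tested and 2 were lower (Lrp2 and Aqp1), their sum being 78.0 to 93.9 CPM in CTL and 35.8 to 49.6 CPM in TGF-β1 cultures. Podocyte markers summed to 446 to 683 CPM in CTL and 358 to 417 CPM in TGF-β1 cultures, with 0 of 3 tested genes called without the block and 3 lower with it (0 higher and 2 lower at an unadjusted p-value of 0.05, and 0 higher and 1 lower by DESeq2). Of 10 tested fibroblast and pericyte markers, edgeR called 0 without the block, 4 higher and 2 lower with it, 0 by DESeq2 and 0 at an unadjusted p-value of 0.05. Leukocyte markers summed to 9.37 to 21.4 CPM in CTL and 6.84 to 18.5 CPM in TGF-β1 cultures, with 1 of 6 tested genes lower (Csf1r). Loop and distal tubule markers stayed within 1.34 to 3.55 CPM and collecting duct markers within 0.29 to 1.45 CPM in the 6 cultures. The genes Cdh16, Pax8, Lrp2, Aqp1 and Csf1r were named after their values were seen.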
